A study of Mus musculus with 7 samples.

Results

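The genes described here encode proteins of nasal mucus and their relatives: odorant-binding proteins and other lipocalins, BPI-fold proteins, mucins, demilune cell and parotid proteins, and glutathione peroxidase 6. They were chosen by gene symbol alone (Bpif, Obp, Lcn, Muc and Dcpp with their numbers, and Gpx6), which took 44 of the 54532 genes in the deposited tables. The data are poly(A) RNA-seq of fluorescence-sorted (FACS) cells of mouse olfactory epithelia. Mature olfactory sensory neurons, the cells that detect odorants, came from mice of the genotype OMP-GFP at postnatal days 2, 7 and 16 (P2, P7 and P16; 3 libraries). Intermediate progenitor cells, which divide to give rise to these neurons, came from mice of the genotype Neurog1-GFP at P3, P7, P9 and P16 (4 libraries). The GFP reporters are named for Omp, a gene of mature olfactory neurons, and for Neurog1, a transcription factor gene of neuronal progenitors, and the study's design text describes each library as pooled purified cells. No treatment is labelled, and the labels do not tie libraries to single animals. Each population has 1 library per age and its own mouse line, so line and population cannot be told apart, and the ages stood in as the replicates of a population.

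Odorant-binding proteins are small secreted lipocalins, barrel-shaped proteins that hold a hydrophobic molecule in a central pocket, and they are found in the mucus that covers the olfactory epithelium. BPI-fold proteins are secreted relatives of the bactericidal/permeability-increasing protein, come in short (Bpifa) and long (Bpifb) forms, and include abundant products of nasal glands. Mucins are heavily O-glycosylated proteins that either are secreted and form the mucus gel (Muc2, Muc5ac, Muc5b, Muc6 and Muc19) or stay anchored in the cell membrane. In the nose these proteins are known mainly as products of Bowman's glands, nasal glands, sustentacular (supporting) cells and goblet cells, not of neurons. A choice by symbol therefore also takes genes whose products are not secreted mucus proteins: the 8 membrane mucin genes, and lipocalins such as Lcn5, Lcn6, Lcn8, Lcn9, Lcn10 and Lcn12, which are known from the epididymis.

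Libraries held 24203965 to 25930727 counts assigned to genes. Marker lists were chosen with earlier results of these data known. Of 13 mature neuron markers, 11 were called higher in mature neurons, against 28.8% of all tested genes. All 12 progenitor markers were called lower, against 30.0% of all tested genes. Both lists follow the labels. Omp itself did not: it stood at 1066 to 1630 TPM (the deposited unit, scaled for transcript length and library total) in the mature libraries and at 1323 to 2371 TPM in the progenitor libraries. Of the 44 genes, 31 reached 10 counts or 1 TPM in at least 1 library, and 27 passed the filter on low counts and were tested. The other 13 had at most 5 counts and 0.16 TPM in any library, and 5 of these (Bpifa2, Bpifb2, Lcn5, Lcn9 and Lcn10) had 0 counts in all 7. A count of 0 allows up to 3 counts per library, or 0.111 to 0.128 CPM (counts scaled to library size with TMM factors). The 44 genes together took 0.0578%, 0.0395% and 0.213% of the gene counts in the P2, P7 and P16 mature libraries (95% Wilson interval at P16, 0.212% to 0.215%). In progenitors their share was 0.0328% at P3, 0.0385% at P7, 0.0269% at P9 and 0.0454% at P16 (Wilson interval at P16, 0.0446% to 0.0463%). The P16 library had the highest share in each population. These intervals, and those of all ratios of counts given later, cover counting error only.

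The Obp1, Obp2 and Bpifb9 genes come as neighbouring pairs of related genes, and the start of each is shown because the 2 genes of a pair are alike in sequence to very different degrees. Each line holds the 110 bases up to the transcription start (RefSeq, build GRCm38.p6, read 5′ to 3′ on the gene's own strand and ended before the earlier of the GENCODE and RefSeq starts), with TATAAA in capitals. Obp1a lies on the minus strand and the others on the plus strand.
Obp1a, chrX:78091375-78091484: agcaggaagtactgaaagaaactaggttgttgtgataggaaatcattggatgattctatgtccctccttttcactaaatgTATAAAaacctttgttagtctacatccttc
Obp1b, chrX:78186667-78186776: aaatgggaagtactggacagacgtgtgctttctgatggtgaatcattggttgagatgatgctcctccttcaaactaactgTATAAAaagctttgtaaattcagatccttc
Obp2a, chr2:25699933-25700042: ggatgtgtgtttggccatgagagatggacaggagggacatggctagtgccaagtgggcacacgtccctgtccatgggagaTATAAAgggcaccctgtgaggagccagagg
Obp2b, chr2:25736897-25737006: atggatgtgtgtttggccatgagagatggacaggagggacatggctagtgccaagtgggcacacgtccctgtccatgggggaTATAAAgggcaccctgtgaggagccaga
Bpifb9a, chr2:154257744-154257853: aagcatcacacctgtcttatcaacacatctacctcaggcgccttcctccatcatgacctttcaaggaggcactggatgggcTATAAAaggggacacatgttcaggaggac
Bpifb9b, chr2:154307117-154307226: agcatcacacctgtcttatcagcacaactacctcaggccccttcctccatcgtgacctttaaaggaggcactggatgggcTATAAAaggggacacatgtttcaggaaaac

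In all 6 windows TATAAA begins 28 to 30 bases before the earlier of the 2 starts. Measured from the RefSeq start, it begins 61 bases before for Obp1b and Obp2a, 54 for Bpifb9a and 47 for Bpifb9b. In a global (end to end) alignment the Obp2a and Obp2b windows were 99.1% identical over 108 aligned bases. Those of Bpifb9a and Bpifb9b were 93.6% identical over 109, and those of Obp1a and Obp1b 69.7% over 109. The Obp1a window was 51.0% identical to that of Obp2a, and Bpifb9a was 53.7% identical to Obp1a and 53.9% to Obp2a. Over RefSeq's windows of 250 bases before to 50 after each start, 39 of the 44 genes had an entry, with 42 windows in all. TATAAA on the gene's strand within the last 50 bases before the RefSeq start occurred in 21.4% of these 42 windows. It occurred in 2.63% of all 32851 windows. Obp1b, Obp2a and Bpifb9a are not counted in the 21.4%, since their TATAAA begins farther than 50 bases before the RefSeq start. On either strand and anywhere in the window the shares were 31.0% and 13.6%. Other letters searched on both strands over the whole window were ACAATG, found in 19.0% of the 42 and 12.6% of all windows, ACAAAG in 23.8% and 18.7%, and TGTTTAC in 2.38% and 3.65%. A match is a run of letters and was not tested as a binding site.

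The odorant-binding protein genes were at very different levels in the 7 libraries. Obp1a (minus strand, chrX:78085505-78091374, GRCm38) was at 6.60, 1.40 and 1866 TPM in the P2, P7 and P16 mature libraries, and at 1.43, 36.8, 0.69 and 118 TPM in progenitors at P3, P7, P9 and P16. Obp1b (plus strand, chrX:78186777-78192292) was at 1.51, 0.79 and 2013 TPM in mature neurons and at 0.64, 19.6, 0 and 129 TPM in progenitors, in the same order of ages. The P16 library was the highest of each population for both genes, and the progenitor P7 library stood above the P3 and P9 libraries. At the other ages the mature neurons were not higher throughout: the P7 mature library lay below the P7 progenitor library for both genes. Obp2a (plus strand, chr2:25700043-25703326) was at 21.9, 0.09 and 284 TPM in mature neurons and at 0.60, 1.78, 0.09 and 31.2 TPM in progenitors. Obp2b (plus strand, chr2:25737009-25740097) was at 0.28, 0.10 and 11.9 TPM in mature neurons and at 0, 1.33, 0.09 and 19.2 TPM in progenitors. These genes too were highest at P16 in both populations, but at P16 Obp2a stood higher in mature neurons and Obp2b higher in progenitors. Obp1a and Obp1b shared the order of their 4 highest libraries, which were P16 mature, P16 progenitor, P7 progenitor and P2 mature.

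Summed over the 4 genes, the level was 30.3, 2.38 and 4175 TPM in mature neurons and 2.67, 59.5, 0.87 and 297 TPM in progenitors. Obp1a and Obp1b made up most of the sum at P16, while Obp2a made up most of it in the P2 mature library. The libraries between P2 and P9 showed no order by age. In bulk samples such as these, a larger number of cells of a type and more RNA per cell cannot be told apart. The coding sequences of Obp1a and Obp1b were 74.0% identical over 489 aligned bases and those of Obp2a and Obp2b 74.6% over 523. The first 90 coding bases of Obp1a and Obp1b, which include the region of the signal peptide that sends the protein out of the cell, show where they differ, with bases in capitals that differ from or are missing in the partner (spliced over 2 exons, GENCODE transcripts on GRCm38).
Obp1a, minus strand, chrX:78090806-78091322: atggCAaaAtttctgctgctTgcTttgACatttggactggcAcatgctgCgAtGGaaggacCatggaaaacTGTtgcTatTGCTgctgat
Obp1b, plus strand, chrX:78186827-78187365: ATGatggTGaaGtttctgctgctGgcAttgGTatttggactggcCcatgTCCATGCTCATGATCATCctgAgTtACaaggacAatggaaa

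Reads that fit more than 1 gene are kept out of gene counts, so near-identical copies matter for these values. Of the 50-base stretches of the Obp1b transcript, 73.5% also occur in the transcript of Gm14743, a neighbour on chromosome X, whereas 7.20% of those of Obp1a occur in another gene (Gm5938). Obp2a and Obp2b share 11.7% and 11.9% of theirs with each other. At P16 in mature neurons Obp1b had 6081 counts and Obp1a 18419, although Obp1b was the higher on the TPM scale. Levels on both tables placed P16 first in each population for all 4 genes.

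Genes beside Obp1a and Obp1b that the symbols did not take were read after the values were seen. Only protein-coding genes were read, and 4 others lie within 200 kb. Of these, 5430402E10Rik (RefSeq synonym OBP2) was at 1.21, 0.36 and 902 TPM in mature neurons. In progenitors it was at 1.17, 23.8, 1.19 and 119 TPM. Gm14743 was at 1.47, 0 and 1017 TPM in mature neurons and at 0, 3.79, 0.86 and 38.2 TPM in progenitors. Gm5938 (synonym OBP6) was at 6.31 TPM in the P16 mature library and at most 0.59 TPM in the others. All 3 had their highest value in the P16 mature library, as Obp1a and Obp1b did. The remaining neighbour, 4930480E11Rik, had 1 count in all.

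**Figure D1:**
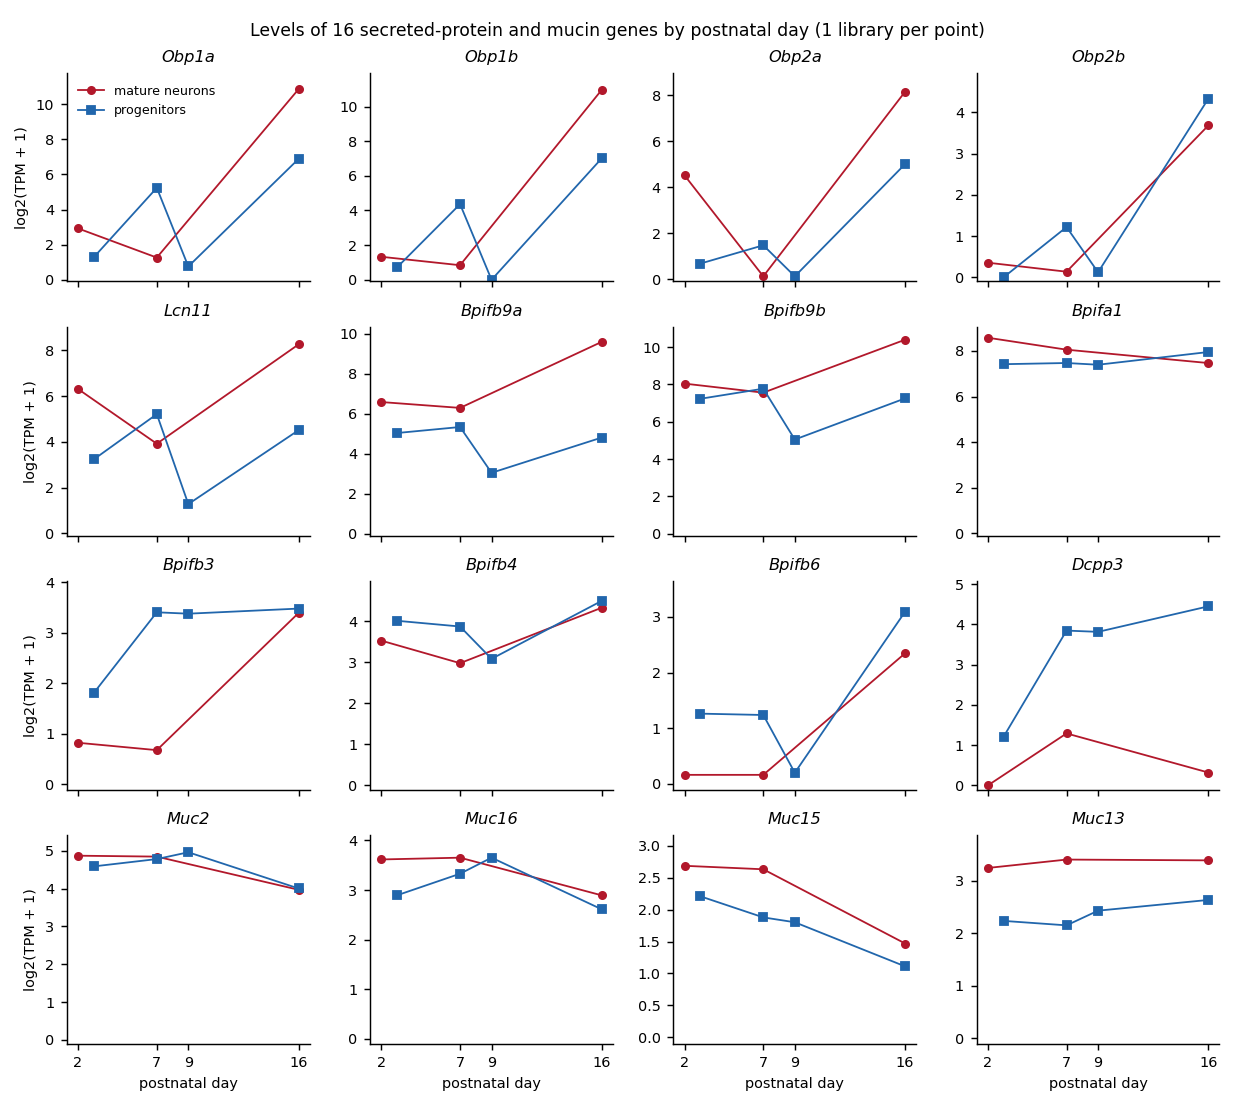
Levels of 16 genes as log2(TPM + 1), on the vertical axes, against postnatal day, for mature neurons (red circles, 3 libraries) and progenitors (blue squares, 4 libraries); vertical scales differ between panels and each point is 1 library, so there are no error bars. Obp1a, Obp1b, Obp2a and Obp2b have their highest point at day 16 in both populations, Bpifb9a, Bpifb9b and Lcn11 in mature neurons but not in progenitors, and Muc2, Muc16 and Muc15 their lowest point at day 16 in both.

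Among the other lipocalins, Lcn11 and Lcn2 were the abundant ones. Lcn11, which lies beside the Obp2 genes (plus strand, chr2:25777017-25780279), was at 78.4, 14.1 and 306 TPM in mature neurons and at 8.39, 36.0, 1.42 and 21.8 TPM in progenitors. Its coding sequence is 56.5% identical to that of Obp2a, and like Obp1a, Obp1b and Obp2a it was highest in the P16 mature library. Its P9 library was the lowest of all 7. In progenitors, however, P7 and not P16 was its highest library. Lcn2, the siderophore-binding lipocalin (neutrophil gelatinase-associated lipocalin) that withholds iron from bacteria, was at 25.2, 17.2 and 23.7 TPM in mature neurons and at 29.8, 3.98, 7.02 and 3.13 TPM in progenitors. The P3 progenitor library was its highest of all 7, while the 3 other progenitor libraries lay below every mature library. Lcn3 and Lcn4, lipocalins of the vomeronasal and nasal glands, had at most 27 and 12 counts, and both were highest in the P16 mature library at 2.55 and 0.95 TPM. Lcn4 had 0 counts in the other 6 libraries. Lcn12 was between 0.27 and 0.93 TPM in all 7 libraries, with at most 10 counts. Lcn5, Lcn6, Lcn8, Lcn9 and Lcn10 did not exceed 0.10 TPM anywhere.

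The long BPI-fold genes lie in 1 cluster on chromosome 2 and did not share 1 pattern. Bpifb9b (plus strand, chr2:154307227-154320646) had the highest mean of all 44 genes, with 263, 188 and 1349 TPM in mature neurons and 149, 218, 32.0 and 151 TPM in progenitors. Bpifb9a (plus strand, chr2:154257854-154271245) was at 95.3, 77.6 and 780 TPM in mature neurons and at 31.8, 39.4, 7.24 and 27.1 TPM in progenitors. For both, P16 stood far above P2 and P7 in mature neurons, P9 was the lowest of all libraries, and P7 rather than P16 was the highest progenitor library. Bpifb9a did not overlap between the populations, and Bpifb9b did, since its P7 progenitor library lay above its P7 mature library. The coding sequences of these genes are 99.3% identical, with 13 mismatches in 1773 bases, and their transcripts share 71.4% of 50-base stretches, so how reads were divided between them is uncertain. Their first 90 coding bases are the same and are shown as the clearest example of what a read cannot tell apart.
Bpifb9a, plus strand, chr2:154259985-154260074: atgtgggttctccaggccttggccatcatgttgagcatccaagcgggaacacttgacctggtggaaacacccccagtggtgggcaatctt
Bpifb9b, plus strand, chr2:154309361-154309450: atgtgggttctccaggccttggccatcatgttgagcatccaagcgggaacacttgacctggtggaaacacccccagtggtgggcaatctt

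Bpifb5 (plus strand, chr2:154223742-154240902) had the same order of libraries within each population as Bpifb9a, at a lower level, with 11.6, 7.26 and 26.2 TPM in mature neurons and 5.06, 6.51, 1.69 and 4.08 TPM in progenitors, and no overlap between the populations. Bpifb4 (plus strand, chr2:153938212-153964101) differed less between libraries: 10.6, 6.89 and 19.2 TPM in mature neurons and 15.2, 13.7, 7.49 and 21.6 TPM in progenitors. Bpifb3 (plus strand, chr2:153918230-153932996) was at 0.77, 0.60 and 9.48 TPM in mature neurons and at 2.5, 9.57, 9.37 and 10.1 TPM in progenitors. Its neighbour Bpifb6 (plus strand, chr2:153900388-153912795) was at 0.12, 0.12 and 4.09 TPM in mature neurons and at 1.40, 1.36, 0.15 and 7.54 TPM in progenitors. These 3 genes were highest at P16 in both populations, but Bpifb3 had already a similar level at P7 and P9 in progenitors. Bpifb1 (plus strand, chr2:154190818-154220369), a secreted protein of airway goblet cells and glands, was at 0.93, 0.45 and 0.95 TPM in mature neurons and at 1.54, 2.29, 1.63 and 2.98 TPM in progenitors, with every progenitor library above every mature one.

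Bpifa1, the short BPI-fold protein also called SPLUNC1, an abundant surfactant-like protein of nasal and airway secretions, lies on the plus strand at chr2:154142880-154149219 and was at 382, 265 and 176 TPM in mature neurons and at 170, 176, 167 and 247 TPM in progenitors. Here the order of ages ran opposite ways in the populations: P16 was the lowest mature library and the highest progenitor library. The other 4 Bpifa genes did not exceed 0.16 TPM. Gpx6, a glutathione peroxidase known from the olfactory epithelium and Bowman's glands (plus strand, chr13:21312125-21319624), was at 6.94, 3.16 and 11.3 TPM in mature neurons and at 3.36, 6.45, 1.61 and 11.1 TPM in progenitors, highest at P16 and overlapping between the populations.

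The demilune cell and parotid protein genes, which encode secreted glycoproteins of salivary glands, had their highest TPM in the P16 progenitor library. Dcpp3 (plus strand, chr17:23917458-23919441) was at 0, 1.45 and 0.25 TPM in mature neurons and at 1.31, 13.4, 13.1 and 20.8 TPM in progenitors, and the populations did not overlap in CPM. Dcpp2 was at 0, 0.17 and 0.48 TPM in mature neurons and at 0, 2.51, 1.84 and 9.70 TPM in progenitors. Dcpp1 was at 0.23, 1.07 and 1.91 TPM in mature neurons and at 0.39, 3.99, 2.48 and 4.01 TPM in progenitors. For all 3 the P3 progenitor library was far below the later progenitor libraries. Their coding sequences are 93.7% to 95.9% identical and Dcpp1 and Dcpp2 overlap on the same strand, so the division of reads among them is uncertain.

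Of the gel-forming mucins, Muc2, the main mucin of intestinal mucus, was the highest. It lies on the plus strand at chr7:141690340-141754693 and was at 28.3, 27.8 and 14.7 TPM in mature neurons and at 23.1, 26.6, 30.2 and 15.1 TPM in progenitors. Both P16 libraries were the lowest of their populations and lay below all earlier libraries, and the populations overlapped. Muc5b, the main gel-forming mucin of airway glands, was at 0.08 to 0.22 TPM with 14 to 38 counts and was highest at P16 in each population. Muc19 had 14, 13 and 3 counts in mature neurons and 0 in all 4 progenitor libraries, and it shares exon sequence with Smgc on the same strand. Muc5ac and Muc6 did not exceed 0.04 TPM.

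Membrane mucins, which form the glycocalyx of epithelial surfaces, had P16 as the lowest library of both populations in CPM in 4 of 7 tested genes. Over all tested genes the share was 17.2%, and over the 27 tested members it was 18.5%. Muc16 (minus strand, chr9:18495455-18674530) was at 11.3, 11.6 and 6.42 TPM in mature neurons and at 6.43, 9.05, 11.6 and 5.10 TPM in progenitors. Muc1 (plus strand, chr3:89229057-89233381) was at 6.94, 9.37 and 4.91 TPM in mature neurons and at 10.6, 9.04, 11.2 and 4.82 TPM in progenitors. Muc15 (plus strand, chr2:110721340-110739527) was at 5.45, 5.21 and 1.77 TPM in mature neurons and at 3.63, 2.68, 2.49 and 1.16 TPM in progenitors. In each of these genes P16 was the lowest library of both populations. Muc4 was at 2.91, 2.62 and 1.86 TPM in mature neurons and at 2.05, 1.82, 2.32 and 2.0 TPM in progenitors, and its P16 libraries were lowest in CPM but not on the TPM scale in progenitors. Muc20 was at 1.05 to 2.97 TPM with no order by age, and it overlaps Muc4 on the opposite strand. Muc13 (plus strand, chr16:33794037-33819934) was at 8.47, 9.58 and 9.47 TPM in mature neurons and at 3.71, 3.44, 4.39 and 5.21 TPM in progenitors, so that every mature library lay above every progenitor library. Muc3 (minus strand, chr5:137134922-137149322) showed the reverse, with 0.07, 0.04 and 0 TPM in mature neurons and 0.51, 1.13, 1.08 and 1.09 TPM in progenitors. Muc3a did not exceed 0.11 TPM. The exons of Muc13 and Muc15 overlap Gm15657 and Ano3 on the opposite strand, and the strand setting of the counting is not given in the sources used here.

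**Figure D2:**
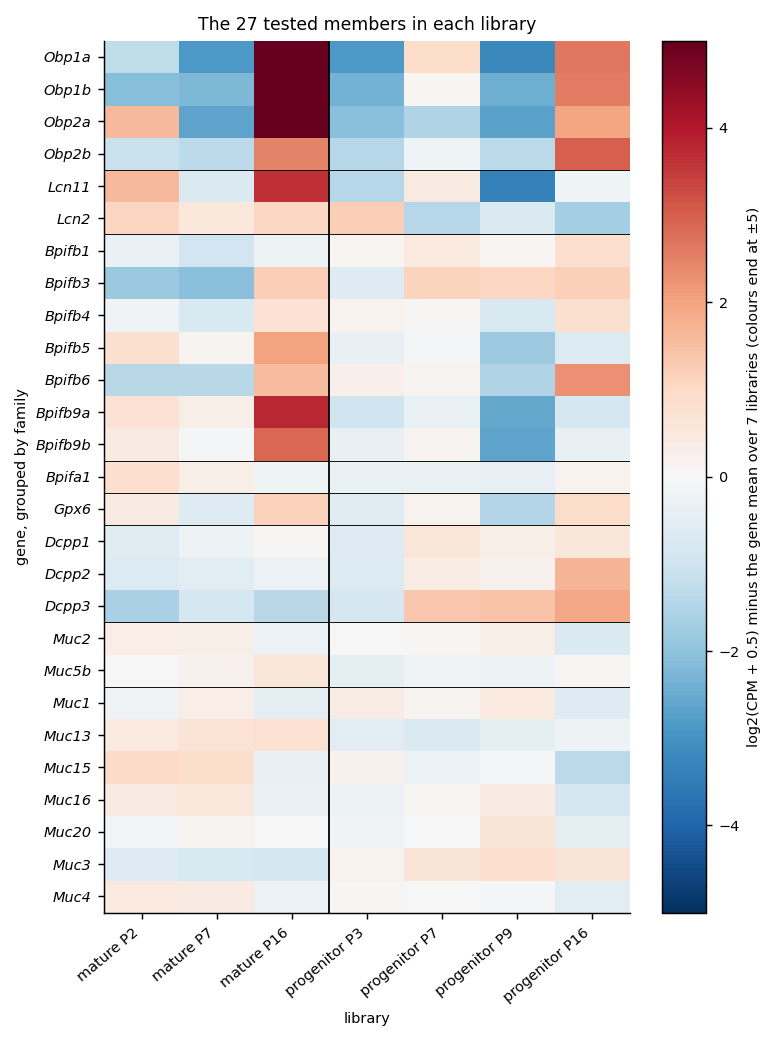
Each of the 27 tested genes (rows, grouped by family) in each of the 7 libraries (columns, mature neurons left of the line and progenitors right of it), coloured by log2(CPM + 0.5) minus the gene's mean over the 7 libraries. Red marks a library above the gene's mean and blue one below it; the mature P16 column is darkest red for Obp1a, Obp1b, Obp2a, Lcn11, Bpifb9a and Bpifb9b, and Dcpp3 and Muc3 are blue in all mature libraries.

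Mature neurons were compared with progenitors across all 7 libraries, by edgeR's quasi-likelihood test with Benjamini-Hochberg adjustment over all 17975 tested genes. Of the 27 tested members, 8 were called at an adjusted p under 0.05, or 29.6%, against 58.8% of all tested genes. The long BPI-fold genes Bpifb9a, Bpifb9b and Bpifb5, the lipocalin gene Lcn11 and the membrane mucin gene Muc13 were higher in mature neurons (5 of 27; 28.8% of all tested genes were higher). Bpifb1, Dcpp3 and Muc3 were lower (3 of 27; 30.0% of all tested genes were lower). The median log2 fold of the 27 was 0.39 beside 0.01 over all tested genes. The populations did not overlap in CPM for 6 of the 27, or 22.2%, against 61.4% of all tested genes.

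Bpifb9a had a CPM of 77.4 ± 99.7 in mature neurons (SD, n = 3) and 6.64 ± 3.67 in progenitors (SD, n = 4), a log2 fold of 3.54 (SE 0.90, adjusted p = 0.0092 by edgeR). Without the P16 mature library its log2 fold was 1.58 (edgeR adjusted p = 0.021; 0.0044 to 0.043 over all alternatives that gave a value), and it stayed called. Bpifb9b stood at 235 ± 261 and 51.4 ± 28.8 CPM, a log2 fold of 2.19 (SE 0.79, adjusted p = 0.041 by edgeR). That call was lost without the P16 mature library, where the log2 fold was 0.72 (edgeR adjusted p = 0.29; 0.023 to 0.30 over the alternatives), and also without any 1 of the 4 progenitor libraries. Lcn11 stood at 56.8 ± 66.5 and 6.54 ± 5.82 CPM, a log2 fold of 3.12 (SE 1.08, adjusted p = 0.036 by edgeR). Its log2 fold was 1.55 without the P16 mature library (edgeR adjusted p = 0.18; 0.015 to 0.32 over the alternatives), and the call was also lost without the P3, P9 or P16 progenitor library. Bpifb5 stood at 16 ± 11.1 and 4.21 ± 2.03 CPM, a log2 fold of 1.92 (SE 0.54, adjusted p = 0.015 by edgeR). Its log2 fold was 1.21 without the P16 mature library, still called, and 1.19 without both P16 libraries, where the call was lost (edgeR adjusted p = 0.070; 0.00057 to 0.070 over the alternatives). With P7 and P16 alone and age as a block, the calls of Bpifb5 (log2 fold 1.54, adjusted p = 0.063 by edgeR), Bpifb9b (1.53, adjusted p = 0.14) and Lcn11 (1.54, adjusted p = 0.32) were lost. All 4 log2 folds were smaller without the P16 mature library.

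Muc13 differed by less but with the smallest error, at 13.5 ± 1.31 CPM in mature neurons and 5.90 ± 0.89 in progenitors (SD, n = 3 and 4; log2 fold 1.19, SE 0.16, adjusted p = 0.00032 by edgeR). It was called under every alternative run, with a log2 fold of 1.11 to 1.28 when any 1 library was left out. Muc3 had 0 to 2 counts per mature library and 15 to 31 per progenitor library, or 0.042 ± 0.042 and 0.89 ± 0.25 CPM (log2 fold -4.24, SE 0.59, adjusted p = 0.00044 by edgeR), so the size of its fold is poorly known. Dcpp3 had 0, 8 and 2 counts in mature neurons and 10, 88, 97 and 145 in progenitors, or 0.14 ± 0.18 and 3.20 ± 2.10 CPM (log2 fold -4.45, SE 1.07, adjusted p = 0.0070 by edgeR). It was too low to be tested without the P9 or the P16 progenitor library, and its log2 fold was -6.08 without the P7 mature library. Bpifb1 had 11 to 25 counts per mature library and 41 to 78 per progenitor library, or 0.85 ± 0.33 and 2.04 ± 0.66 CPM (log2 fold -1.26, SE 0.37, adjusted p = 0.018 by edgeR). Without the P7 mature library its log2 fold was -0.97 and the call was lost (edgeR adjusted p = 0.059; 0.0088 to 0.059 over the alternatives).

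None of the odorant-binding protein genes was called between the populations, although the means of Obp1a, Obp1b and Obp2a were far apart. Obp1a averaged 263 ± 454 CPM in mature neurons and 14.9 ± 21.2 in progenitors (SD, n = 3 and 4; log2 fold 4.15, SE 2.06, adjusted p = 0.12 by edgeR). Obp1b averaged 86.7 ± 150.0 and 4.50 ± 7.45 CPM (log2 fold 4.27, SE 2.14, adjusted p = 0.12 by edgeR). The SD of mature neurons exceeded their mean for both, and without the P16 mature library the log2 folds were -3.27 for Obp1a and -5.34 for Obp1b, with the sign turned. Obp2a had a log2 fold of 3.77 (SE 1.81, adjusted p = 0.10 by edgeR), and it was called without the P16 progenitor library (7.12), without both P16 libraries (3.85), with P7 and P16 alone and age as a block (2.75) and with age in the model (4.22). For Obp2b the log2 fold was -0.18 (SE 1.77, adjusted p = 0.94 by edgeR). Bpifa1, at 190 ± 68.7 CPM in mature neurons and 126 ± 25.6 in progenitors, had a log2 fold of 0.59 (SE 0.24, adjusted p = 0.061 by edgeR). Without the P16 mature library it was called, at a log2 fold of 0.81 (edgeR adjusted p = 0.0064; 0.00083 to 0.59 over the alternatives). The remaining tested mucins had log2 folds between -0.24 for Muc1 and 0.94 for Muc15, and none of these was called.

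**Figure D3:**
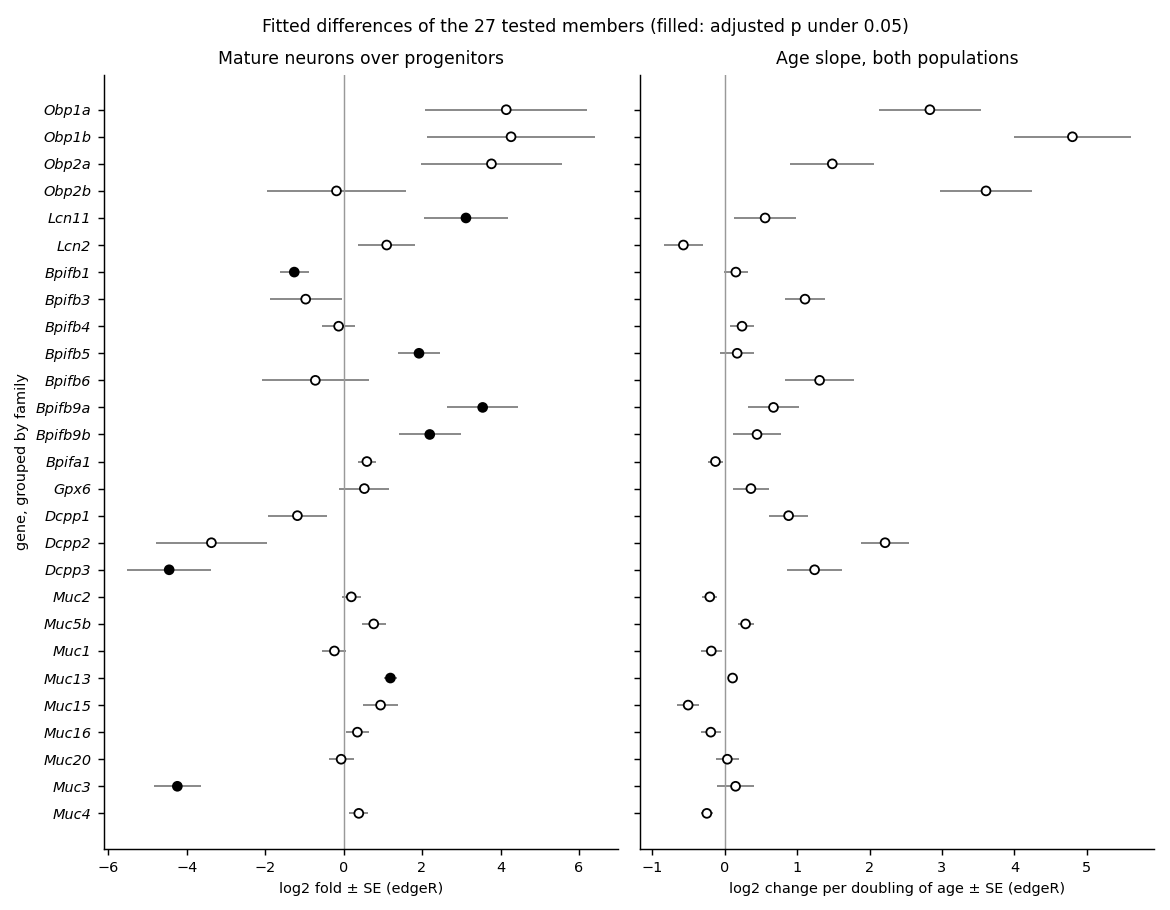
Fitted values of the 27 tested genes. At left is the log2 fold of mature neurons over progenitors, at right the log2 change per doubling of age shared by both populations. Bars are standard errors back-calculated from the F statistic (absolute value over the square root of F). Filled points have an edgeR adjusted p under 0.05. In the left panel 8 points are filled, 5 to the right of 0 and 3 to the left; in the right panel none is filled, and Obp1b has the steepest slope, 4.80.

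Age was tested as a slope on log2 of the postnatal day, shared by both populations, in the same 7 libraries. With edgeR 0 of 27 members were called, and 0.00% of all tested genes; at an unadjusted p under 0.05 there were 12 members and 3746 of 17975 genes. The lowest adjusted p, 0.059, was shared by Obp1b (log2 change per doubling of age 4.80, SE 0.81), Obp2b (3.61, SE 0.63) and Dcpp2 (2.21, SE 0.33), all by edgeR. Obp1a had a slope of 2.83 (SE 0.71, adjusted p = 0.091 by edgeR) and Bpifb3 of 1.11 (SE 0.27, adjusted p = 0.088 by edgeR). Obp2a had a slope of 1.49 (SE 0.58, adjusted p = 0.20 by edgeR), with P2 above P7 in mature neurons. The steepest negative slope among the mucins was that of Muc15, -0.51 (SE 0.15, adjusted p = 0.12 by edgeR), followed by Muc4 at -0.25, Muc2 at -0.21, Muc16 at -0.19 and Muc1 at -0.18. In all, 20 slopes were positive and 7 negative, with a median of 0.29 beside -0.00278 over all tested genes.

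How many slopes were called depended on the tool and on 1 library. DESeq2's Wald test called 5 members (Bpifb3, Dcpp3, Muc15, Obp1a and Obp1b) among 1495 genes in all. Without the P7 mature library edgeR called 6 (Bpifb3, Dcpp2, Dcpp3, Obp1a, Obp1b and Obp2b) among 986 genes, and with age on a linear scale it called 7 among 1124 genes. Adjusted p-values of the Obp1b slope ran from 0.0078 to 0.34 over the alternatives that gave a value, and the slope was positive in these. Obp1b and Obp2b were too low to be tested without the P7 or the P16 progenitor library, or in either population alone. Dcpp2 was too low without the P7, P9 or P16 progenitor library, or in either population alone. Obp1b, Obp2b and Dcpp2 thus entered the test through the libraries in which they were high, and their slopes depend on those libraries.

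As a description with no test, the P16 library was the highest of both populations in CPM for 12 of the 27 members, or 44.4%, against 15.3% of all tested genes. These were the 4 Obp genes, Bpifb1, Bpifb3, Bpifb4, Bpifb6, Dcpp2, Gpx6, Muc5b and Muc13. Several margins were small, and that of Muc13 is absent on the TPM scale in mature neurons. Bpifb1 had 25 counts at P16 and 24 at P2 in mature neurons. In progenitors Bpifb3 was at 10.96 CPM at P16 and 10.17 at P7, and Muc5b had 25 and 19 counts. Obp1b, Obp2b and Dcpp2 passed the filter on low counts only with the P16 progenitor library, so the share of 44.4% depends in part on that filter. The P16 library was the lowest of both populations for 5 members, or 18.5%, against 17.2% of all tested genes. These 5 were all mucins (Muc1, Muc2, Muc4, Muc15 and Muc16).

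P7 and P16 are the ages that both populations share, with 1 library each, so ratios between them have counting intervals only and no replicate check. In mature neurons Obp1a was 1543 times as high at P16 as at P7 (95% interval 883 to 2987), with 12 counts at P7. Obp1b, Obp2a and Obp2b had 2, 1 and 1 counts at P7, so their ratios of 3057 (846 to 25250), 3151 (565 to 124500) and 165 (29.2 to 6551) are very uncertain. In progenitors the ratios were smaller: 3.37 for Obp1a (2.99 to 3.81), 6.46 for Obp1b (4.94 to 8.58), 18.6 for Obp2a (11.6 to 31.8) and 15.4 for Obp2b (9.45 to 26.9). All 4 genes were above 1 in both populations. By contrast, Lcn11 was 22.2 times as high at P16 in mature neurons (18.7 to 26.5) and 0.63 times as high in progenitors (0.53 to 0.74). Bpifb9a had ratios of 11.4 (10.3 to 12.6) and 0.66 (0.55 to 0.80), Bpifb9b of 7.78 (7.38 to 8.20) and 0.71 (0.66 to 0.75), and Bpifb5 of 3.89 (3.29 to 4.63) and 0.63 (0.49 to 0.82). For these 4 genes the ratios of the populations lay on opposite sides of 1, and each interval lay wholly on 1 side of 1. Bpifa1 was the mirror image, with 0.71 (0.68 to 0.74) in mature neurons and 1.43 (1.37 to 1.5) in progenitors.

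Muc15, Muc16, Muc1 and Muc2 were lower at P16 than at P7 in both populations. Muc15 had ratios of 0.39 in mature neurons and 0.41 in progenitors, Muc16 of 0.55 and 0.53, Muc1 of 0.56 and 0.56, and Muc2 of 0.66 and 0.58, each with an interval below 1. Muc4 had ratios of 0.59 and 0.68, but on the TPM scale the progenitor ratio was 1.10. Muc13 had ratios of 1.04 (0.90 to 1.22) and 1.43 (1.14 to 1.81), and the intervals of Muc5b and Muc20 included 1 in both populations. Bpifb3 was 16.6 times as high at P16 in mature neurons (10.03 to 29.4) and 1.08 times in progenitors (0.91 to 1.28), since its progenitor level was already high at P7. Whether the age slope differed between the populations was tested by the interaction term in edgeR. It called 0 of 27 members and 0.00% of all tested genes, with 2 members (Bpifa1 and Lcn2) and 1075 genes at an unadjusted p under 0.05. DESeq2 called Bpifa1 alone among the members (slope difference -0.52, DESeq2 adjusted p = 0.049; 0.049 to 0.87 over the alternatives) among 10 genes in all. The slope of Lcn2 was higher in mature neurons by 1.34 (SE 0.31, adjusted p = 0.81 by edgeR).

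**Figure D4:**
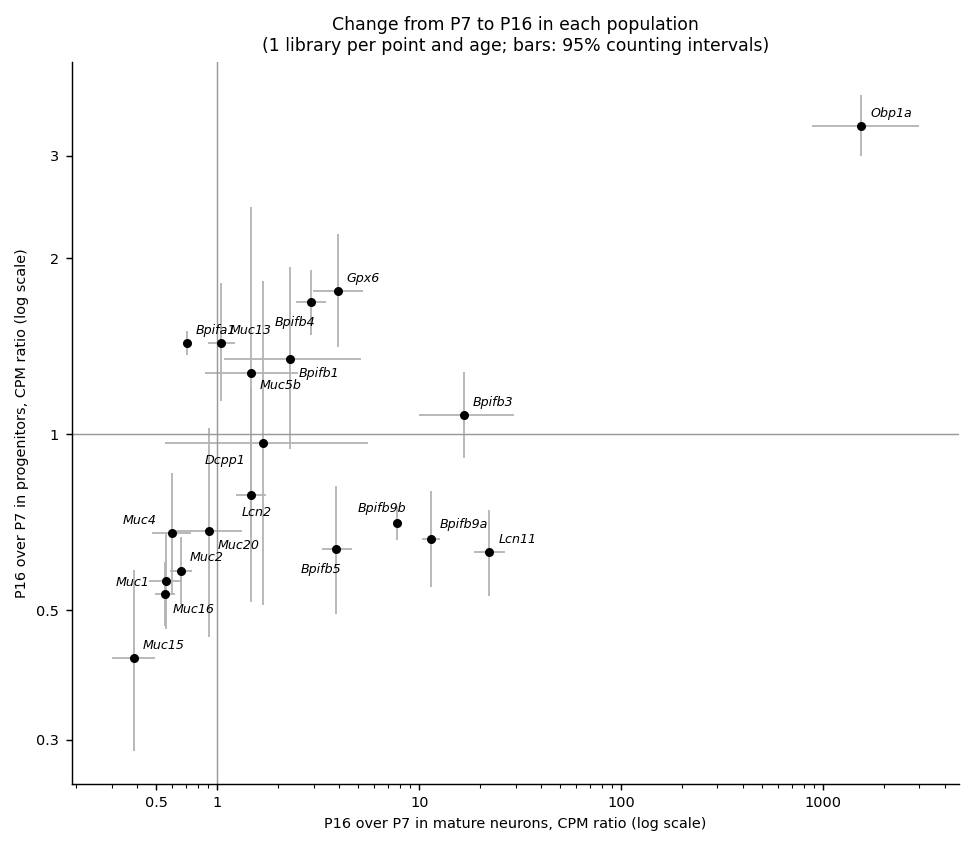
Ratio of P16 to P7 in CPM for the 20 genes with more than 3 counts at both ages in both populations, mature neurons on the horizontal and progenitors on the vertical axis, both logarithmic; bars are 95% counting intervals and grey lines mark a ratio of 1. Lcn11, Bpifb9a, Bpifb9b and Bpifb5 lie at lower right (above 1 in mature neurons, below 1 in progenitors), Muc1, Muc2, Muc15 and Muc16 at lower left, and Obp1a alone at far right.

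Genes known from the cells that make nasal mucus were read beside these values, from marker lists without the 44 genes. Of 16 Bowman gland markers listed, 5 are among the 44 genes and were left out. The sum of the other 11 was 2167, 2012 and 1722 CPM in mature neurons. In progenitors it was 1472, 1557, 1868 and 1066 CPM, and in each population it was lowest at P16. Its most abundant genes were Cyp2g1, Sec14l3 and Krt18. Sec14l3 went the other way in mature neurons, where P16 was its highest library (532, 585 and 642 CPM), whereas Cyp2g1 and Krt18 were lowest there. Prol1 had 0 counts everywhere, and 3 of 10 tested markers were called higher in mature neurons and none lower. The sum of 15 sustentacular markers, led by Sult1d1, Cyp2g1 and Cbr2, was likewise lowest at P16 (3982, 4019 and 3292 CPM, and 2298, 2138, 2636 and 1748 CPM), with 7 of 14 tested markers higher in mature neurons and none lower; over all tested genes 28.8% were higher and 30.0% lower. Cyp2g1 and Krt18 are on the Bowman gland and the sustentacular list alike, so these sums are not independent. Membrane mucin sums were lowest at P16 too, at 80.0, 86.9 and 54.6 CPM and 57.5, 58.4, 72.5 and 37.1 CPM. For 17 respiratory and nasal gland markers, led by Foxj1, Agr2 and Scgb1c1, the sums were 403, 358 and 396 CPM in mature neurons and 234, 191, 256 and 185 CPM in progenitors; Scgb1a1, Scgb3a2 and Tff3 were at 0 in all libraries.

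Sums of leukocyte, neutrophil and erythroid markers had P16 as the highest library of both populations. Of all tested genes taken singly, 15.3% also had P16 as the highest library of both. The sum of 21 leukocyte markers was 89.2, 42.8 and 306 CPM in mature neurons and 23.5, 25.8, 20.8 and 59.3 CPM in progenitors, led by S100a9, Lyz2 and Ltf, with none at 0 everywhere. That of 11 neutrophil markers was 47.3, 15.7 and 197 CPM, and 14.5, 11.3, 7.32 and 27.8 CPM. S100a8, S100a9, Ngp, Ltf and Camp are on both lists, and Ltf is on the respiratory and nasal gland list too. S100a9 and Lyz2 were highest at P16 in both populations. Ltf was not, at 43.34, 12.75 and 39.95 CPM in mature neurons and 9.146, 9.002, 6.319 and 9.045 CPM in progenitors. The sum of 7 erythroid markers, led by Hbb-bs, Hba-a1 and Hba-a2, was 35.4, 42.1 and 313 CPM, and 17.5, 69.9, 47.3 and 131 CPM. The sum of 10 ensheathing glia markers, led by Apoe, Mbp and Fabp7, was 71.9, 87.4 and 226 CPM in mature neurons. In progenitors it was 121, 129, 123 and 132 CPM, so P16 was the highest there by a small margin only. Apoe (142 CPM) and Fabp7 (25.3 CPM) were highest at P16 in mature neurons. Mbp went the other way, at 28.1, 25.5 and 24.6 CPM, and was called lower in mature neurons than in progenitors (log2 fold -1.75, SE 0.09). The sum of 7 vomeronasal markers, led by Gnao1, Nrp2 and Gnai2 and with Trpc2 at 0 everywhere, was 772 to 898 CPM in mature neurons and 1040 to 1136 CPM in progenitors. The part of any of these cells in the levels of the 44 genes was not tested.

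**Figure D5:**
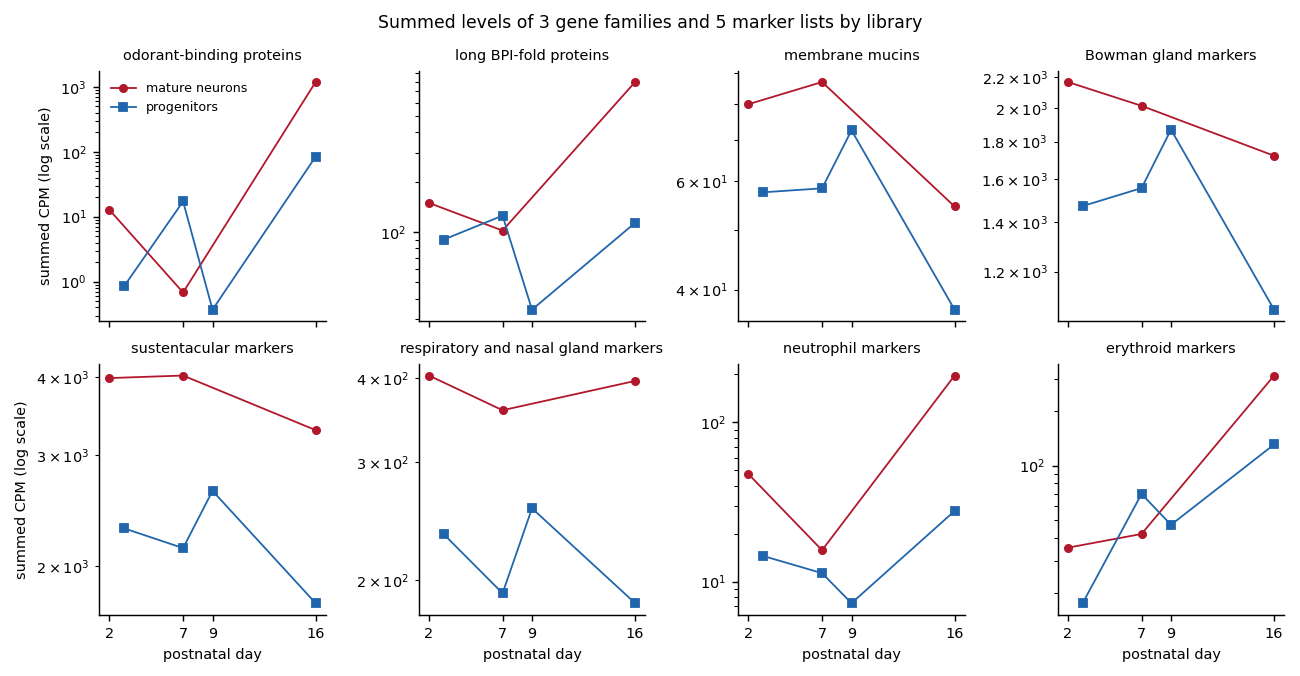
Summed CPM (vertical axes, logarithmic, scales differ between panels) against postnatal day for 3 families of the 44 genes and 5 marker lists without them; mature neurons are red circles and progenitors blue squares, 1 library per point. The odorant-binding protein sum is highest at day 16 in both populations, as are the neutrophil and erythroid sums, while the membrane mucin, Bowman gland and sustentacular sums are lowest there.

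The 8 genes whose log2 CPM over the 7 libraries was most like that of the summed members, other than the members themselves, were Fcgr3, Hcls1, Has3, Kptn, Lilr4b, Cfp, Vcam1 and Rac2, with Pearson correlations of 0.98 to 0.99. All 7 points come from libraries of different age and population, and the P16 mature library is far from the rest, so this is a description. Fcgr3 and Rac2, genes of white blood cells, were at 4.13 and 7.52 TPM in that library and at most 1.39 and 2.75 TPM in any other. Has3 and Kptn correlated as closely but differed little between libraries. They were at 0.66 and 37.3 TPM in that library and at most 0.54 and 33.5 TPM in any other.

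Genes that act in building mucus were counted in the same way. Of 24 tested genes of mucin O-glycosylation, 9 were higher and 5 lower in mature neurons, with a median log2 fold of 0.26; over all tested genes 28.8% were higher and 30.0% lower, so the share called is near the background. Higher genes included C1galt1c1, the chaperone of the core 1 galactosyltransferase (log2 fold 1.25, SE 0.10), and the GalNAc-transferase genes Galnt16 (1.13, SE 0.11) and Galnt14 (0.74, SE 0.09), which start the sugar chains. Lower genes included Galnt18 (-1.45, SE 0.17), Galnt10 (-0.79, SE 0.13), Galnt12 (-1.08, SE 0.24) and the fucosyltransferase gene Fut1 (-1.22, SE 0.28). Of 16 tested genes of mucus assembly and hydration, 4 were higher and 1 lower, with a median of 0.41, beside 58.8% of all tested genes called in either direction. Agr2, a disulphide isomerase needed to fold Muc2, had a log2 fold of 0.75 (SE 0.28), its relative Agr3 of 1.61 (SE 0.27), the secretory-pathway factor gene Creb3l1 of 2.37 (SE 0.23) and the water channel gene Aqp4 of 1.27 (SE 0.35), while Xbp1, a factor of the unfolded protein response, was lower at -0.58 (SE 0.09). All genes named here as higher or lower had an edgeR adjusted p under 0.05. Of Agr2, the TPM values were 124, 101 and 59.1 in mature neurons and 69.3, 51.3, 79.2 and 41.5 in progenitors, lowest at P16 in both, as for Muc2.

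Other secreted proteins of glands gave 13 higher and 1 lower of 25 tested, with a median log2 fold of 1.28, beside 28.8% higher and 30.0% lower over all tested genes. Among them were Car6, the secreted carbonic anhydrase of saliva (log2 fold 4.02, SE 0.71), Reg3g, an antibacterial lectin (1.29, SE 0.13), and the cystatin genes Cst6 (1.28, SE 0.23) and Cst3 (0.46, SE 0.09), while Rbp4, a retinol-carrying lipocalin outside the symbols chosen, was lower (-4.33, SE 0.43). The 36 genes of this list summed to 458, 338 and 1225 CPM in mature neurons and to 339, 243, 294 and 287 CPM in progenitors. That sum was highest at P16 in mature neurons, as for the Obp genes, but at P3 in progenitors. Lyz2 and Ltf are also on the leukocyte list. Car6 was at 18.4, 3.22 and 16.8 TPM in mature neurons and at 1.55, 1.63, 0.18 and 0.75 TPM in progenitors. Like Lcn11 it had P7 as the lowest mature library and P9 as the lowest of all. With edgeR no age slope was called in these 3 lists, nor in any of the 17975 tested genes.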

How the data were processed

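RNA sequencing of 7 libraries of sorted cells gave the values. The authors deposited whole-number read counts per gene and TPM values for 54532 genes. Per the submitters' processing notes bcl2fastq 2.18, STAR 2.6.1c, RSEM and mm10 were used. The annotation release, like the strand setting, is not given in the sources used here. Summary entries that name no gene (23.53% to 27.22% of each library's total) were left out. Members and lists were chosen with earlier results of these data known.

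Counts (24203965 to 25930727 per library) were tested with edgeR 4.0.16 in R 4.3.3 (TMM scaling, filterByExpr, quasi-likelihood test, Benjamini-Hochberg adjustment at 0.05), which was tested on simulated data. Log2 folds are mature over progenitor. The SE of an edgeR value was back-calculated as its absolute value over the square root of the F statistic. It is not an error that edgeR estimates itself. Ages serve as replicates, so p-values rest on a spread that includes age and may be technical. Residual degrees of freedom were 5, 4 and 3 for population, age slope and interaction. Alternatives were DESeq2 1.42.0, its size factors, no filter, limma 3.58.1 on log2(TPM + 1) and log2(TPM + 0.1) with a mean TPM of at least 0.1, each library left out, P7 and P16 alone with age as a replicate block, log2 day as a covariate, day on a linear scale, each population alone and, chosen after seeing the data, both P16 libraries left out. Members with 10 counts or 1 TPM in a library were named; statistics were given in full for called members and the 6 of highest mean TPM. From marker lists the 3 genes of highest CPM were named, from pathway lists up to 4 called per direction, and the 8 genes most correlated with the members' sum. Sequences came from RefSeq (GRCm38.p6) and GENCODE vM21 (GRCm38); Biopython aligned them.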

Additional observations from a re-analysis of the deposited data

Results flagged for a closer look

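In the 4 progenitor libraries, 6 of 29 screened genes had 1 library whose gap to its nearest neighbour took a share of the whole range above the 95% limit of Dixon's test for 4 samples. Chance alone flags about 1 in 20 such groups, and the genes are not independent of each other.

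For 4 genes the P16 library was the distant one, on the high side. Obp1b stood at 15.5 CPM there, with the others at 0 to 2.41 CPM. Obp2a stood at 13.0 CPM, with the others at 0.037 to 0.70 CPM, and Obp2b at 10.2 CPM, with the others at 0 to 0.66 CPM. Bpifa1 stood at 164 CPM, with the others at 110 to 115 CPM. For 2 genes the P3 library was the distant one: Bpifb3 was low there, at 2.70 CPM, with the others at 9.72 to 11.0 CPM, and Lcn2 was high, at 16.2 CPM, with the others at 1.65 to 3.73 CPM. Each age has 1 library, so a library that stands apart and an age that stands apart cannot be told apart. The 3 mature libraries were too few for this screen.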

How the results depend on the processing

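Of the single-gene values recomputed under the alternatives, 399 kept their direction and side of the threshold, 30 newly passed it, 20 no longer passed, 15 changed direction and 4 moved beyond their error. The 8 population calls, among 10565 genes in all, became 5 among 9536 without the P9 progenitor library (5 to 11 members over single libraries left out). With P7 and P16 alone and age as a replicate block there were 10 among 9331 genes, 5 of them shared. The libraries pair by age only. Age slopes, 0 called, gave 5 members with DESeq2 among 1495 genes in all, and 5 without the filter among 770. There were 7 on linear days among 1124 genes, and 6 without the P7 mature library among 986 (0 to 6 members over single libraries left out). The interaction gave 1 with DESeq2. DESeq2 gave Bpifb9a no adjusted p for population.

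Signs turned, with the cause not tested, in these cases. Population folds were -3.27 for Obp1a and -5.34 for Obp1b without the P16 mature library, -1.61 for Obp1a without both P16 libraries, and for Obp2b 0.19 with limma on log2(TPM + 0.1) and 0.38 and 0.39 without the P2 or P7 mature library. Without the P16 mature library age slopes were -0.14 for Bpifb9a, -0.19 for Bpifb9b, -0.30 for Lcn11 and 0.02 for Bpifa1, and Bpifa1 was at 0.078 without the P2 mature library. In progenitors alone they were -0.083, -0.13 and 0.18 for Bpifb9a, Bpifb9b and Bpifa1. The P16 to P7 ratio of Muc4 in progenitors was 1.10 on TPM. Over single libraries left out, population folds ran from -3.27 to 5.80 for Obp1a, -5.34 to 4.86 for Obp1b, 0.50 to 7.12 for Obp2a and -4.93 to 0.39 for Obp2b. Age slopes ran from -0.14 to 0.87 for Bpifb9a, -0.19 to 0.65 for Bpifb9b, -0.28 to 0.078 for Bpifa1 and -0.30 to 1.02 for Lcn11. Depth limits Muc3, Bpifb6, Dcpp1, Dcpp2, Dcpp3, Obp1a, Obp1b, Obp2a and Obp2b, each with 10 counts or fewer in at least 1 library.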
